A study of Mus musculus with 8 samples.

Results

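The genes described here carry glucose through glycolysis to lactate, or divert it into the pentose phosphate pathway, and were compared between splenic hemophagocytes and resting splenic macrophages. Hemophagocytes are macrophages that have engulfed other blood cells. The set held 31 listed genes, and every probe set whose platform annotation names 1 of them was considered, including those that name several genes. Each gene was represented by its brightest such probe set, judged by the average of the 8 arrays, which gave values for 29 members among 20220 gene features. Gpi1 (glucose-6-phosphate isomerase) and Eno1 (enolase 1) matched no probe set of the annotation table used, so their expression was not analysed here. The promoter counts over 31 members include both.

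Both groups came from wild type male C57Bl/6j mice aged 8 weeks, with 4 Affymetrix Mouse Gene ST 1.0 arrays each. The hemophagocyte group had received 4 intraperitoneal doses, on alternate days, of 37.5 ug CpG1826 (an oligonucleotide that triggers Toll-like receptor 9) with 200 ug of antibody clone 1B1.3A, which blocks the IL-10 receptor. The resting group had received 4 doses of 200 uL PBS on the same schedule. Spleens were printed onto membrane slides, 20 target cells per mouse were cut out by laser and pooled, and the RNA was amplified before labelling. Treated mice gave no arrays of macrophages that had engulfed nothing, so engulfment cannot be told apart from treatment. The labels tie no array to a given mouse, and the p-values therefore rest on array-to-array spread, part of which may be technical. Less RNA per cell and fewer cells of a type among those captured cannot be told apart in such pools.

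Glycolysis splits glucose into pyruvate in the cytosol and yields ATP without oxygen. Lactate dehydrogenase turns pyruvate into lactate, which monocarboxylate transporters carry out of the cell, while the pentose phosphate pathway takes glucose-6-phosphate to make NADPH and ribose. Macrophages stimulated through Toll-like receptors are known to raise glucose use and lactate output, partly through the transcription factor HIF-1, whose alpha subunit is encoded by Hif1a. Mature red cells, a main cargo of hemophagocytes, live on glycolysis alone.

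HIF-1 binds a short core in promoters, ACGTG or GCGTG, and Ldha, which encodes a lactate dehydrogenase subunit, is a textbook target. The 250 bases before the RefSeq start of Gapdh, the member with the largest difference, and those before the upstream of the 2 starts of Ldha are shown with these cores, on either strand, in capitals (RefSeq, GRCm38.p6). These coordinates belong to the RefSeq promoter table, not to the array.
Gapdh, chr6:125165774-125166023, minus strand: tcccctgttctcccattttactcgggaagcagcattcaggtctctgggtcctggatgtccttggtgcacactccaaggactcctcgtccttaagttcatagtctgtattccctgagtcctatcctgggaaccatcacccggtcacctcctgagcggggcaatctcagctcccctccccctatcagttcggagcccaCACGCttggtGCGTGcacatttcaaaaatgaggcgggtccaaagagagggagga
Ldha, chr7:46845554-46845803, plus strand: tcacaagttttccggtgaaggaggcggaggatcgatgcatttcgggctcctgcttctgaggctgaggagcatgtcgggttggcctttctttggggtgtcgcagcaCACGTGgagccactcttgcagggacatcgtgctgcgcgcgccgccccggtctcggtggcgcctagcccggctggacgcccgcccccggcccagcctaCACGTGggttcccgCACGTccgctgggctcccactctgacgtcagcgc
The Gapdh stretch held 2 cores and the Ldha stretch held 5. CACGTG reads the same on both strands and so counts as a core on each, which is why the 5 cores of Ldha appear as 3 runs of capitals. The 250 bases before the other Ldha start (chr7:46846832-46847081) held 1 core. Over windows from 250 bases before to 50 after the start, at least 1 window held ACGTG in 17 of 31 members (54.8%) and in 21.8% of 27025 genes. GCGTG was present in 22 of 31 members (71.0%) and in 35.2% of genes. The E-box CACGTG, which contains ACGTG, was present in 5 of 31 members and in 8.09% of genes. A gene with more starts has more windows and so more chances of a match. The members and all genes were not matched for this. A match of letters is a description and not a binding site.

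The arrays' medians lay between 6.10 and 6.17 on the log2 scale. Hemophagocytes 3 and 5 stood apart, with 179 and 182 features more than 1 log2 unit above the feature's own median over the 8 arrays, against 17 and 36 on hemophagocytes 2 and 6 and 10 to 24 on the resting arrays. The mean of 18 macrophage markers ran from 6.41 to 7.34 on hemophagocyte arrays, highest on hemophagocyte 5 and next on hemophagocyte 3 (6.86), and from 6.52 to 6.66 on resting arrays. Cd68, a lysosomal macrophage glycoprotein, stood at 9.66 on hemophagocyte 3, at 10.52 on hemophagocyte 5 and at 7.21 to 7.50 elsewhere, while Adgre1, which encodes F4/80, exceeded 5.89 on hemophagocyte 5 alone (7.38). The list did not move one way: 11 of 18 markers averaged higher in hemophagocytes and 7 lower. Lyz2, the lysozyme of myeloid cells, stood at 5.86, 9.95, 9.96 and 6.55 on hemophagocytes 2, 3, 5 and 6 and at 8.89, 8.86, 8.71 and 7.45 on resting macrophages 3, 4, 5 and 6, so hemophagocytes 2 and 6 lay below every resting array. The mean of 9 erythroid markers ran from 6.38 to 7.50 in hemophagocytes, lowest on hemophagocyte 2, and from 7.11 to 7.57 in resting macrophages. Most of that spread lay in the globins Hbb-b1 and Hba-a1, at 5.85 to 11.34 and 6.06 to 10.46 in hemophagocytes. In resting macrophages they stood at 9.59 to 11.71 and 8.68 to 10.41, for changes of -1.67 and -1.44 (limma adjusted p = 0.74 for each). Of the 9 erythroid markers, 2 averaged higher in hemophagocytes and 7 lower. Platelet markers ran from 6.47 to 7.27 against 6.70 to 6.87, and neutrophil markers from 6.25 to 6.56 against 6.23 to 6.27, both highest on hemophagocyte 3. Neither list moved one way: 3 of 6 and 5 of 13 averaged higher in hemophagocytes. On hemophagocyte 3, Pf4 (10.35), S100a8 (8.02) and S100a9 (9.12) were high. Ppbp (4.80), Ly6g (5.25), Camp (6.69) and Retnlg (7.285) were at their lowest of all arrays there. For T cell, B and plasma cell, NK cell and dendritic cell markers the means were 6.42 to 6.51, 6.17 to 6.32, 5.57 to 5.88 and 6.76 to 6.97 in hemophagocytes, and 6.44 to 6.48, 6.23 to 6.31, 5.91 to 5.94 and 6.85 to 6.87 in resting macrophages. Their part in the results was not tested.

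Most members gave low signals. Olfactory and vomeronasal receptor genes, which macrophages are not known to use, averaged 5.85 to 6.26 per array, with 95th percentiles of 7.45 to 7.83. Of the 29 members, 24 were below that percentile on every array, and 5 (Pfkfb3, Taldo1, Hif1a, Pdk1 and Pdk3) were below the receptor mean on every array. Probe sets differ in how strongly they bind, so this is a rough guide to detection, and for these 5 genes the arrays do not show whether a transcript was detected. Gapdh, the Hk1 probe set, Pkm, Pgk1 and Pgls exceeded the percentile on 6, 5, 2, 1 and 1 arrays.

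**Figure D1:**
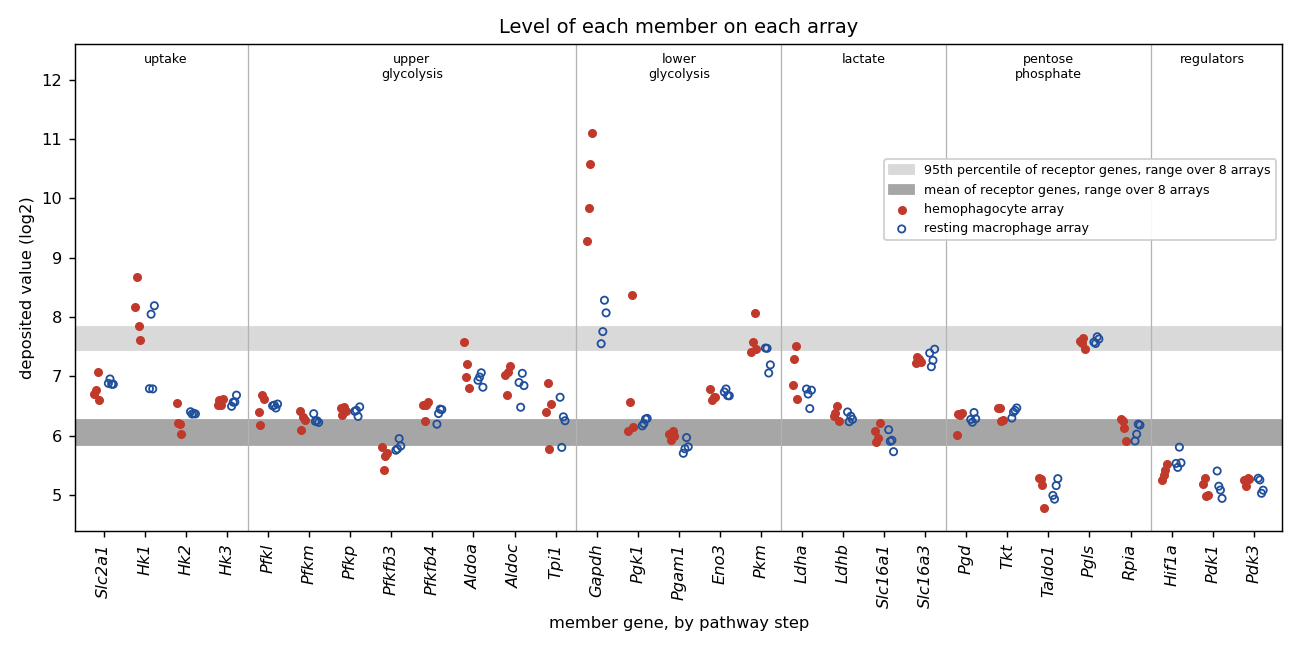
Deposited log2 value (vertical axis) of each of 29 members, grouped by pathway step (horizontal axis), on 4 hemophagocyte arrays (filled) and 4 resting arrays (open); the bands give the range over arrays of the mean and of the 95th percentile of receptor genes. Gapdh alone has all hemophagocyte points (9.28 to 11.11) above all resting points (7.55 to 8.28), and most other members lie below the upper band.

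No member passed the test for a difference between the groups. With limma and Benjamini-Hochberg adjustment over all features, 0 of 29 members were called, where 0.0198% of all features (4) were. At an unadjusted p under 0.05, 3 of 29 members were higher in hemophagocytes (Gapdh, Pgam1 and Ldha) and 0 were lower, against 1.56% and 5.08% of all features. The groups did not overlap in 1 member, Gapdh, which was higher; over all features 0.816% were higher without overlap and 3.0% lower, and 0 members were lower. The median log2 change, hemophagocyte minus resting macrophage, was 0.04 over the members and -0.04 over all features. It was above 0 in 55.2% of members and 36.2% of features as deposited, in 69.0% and 45.4% after quantile normalization, and in 72.4% and 51.0% after cyclic loess. Leaving out 1 array at a time gave shares of members above 0 between 48.3% and 62.1% and medians between -0.0072 and 0.064. The lowest of both came without resting macrophage 4, where 35.7% of all features were above 0. Single arrays also moved the counts. At an unadjusted p under 0.05 the members higher and lower numbered 1 and 1 without hemophagocyte 5, 5 and 1 without hemophagocyte 6, 3 and 2 without hemophagocyte 2, and 3 and 1 without resting macrophage 4. They numbered 2 and 0 without hemophagocyte 3 or any of resting macrophages 3, 5 and 6. With hemophagocytes 3 and 5 both left out there were 1 and 1, and the members' median was 0.0012.

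**Figure D2:**
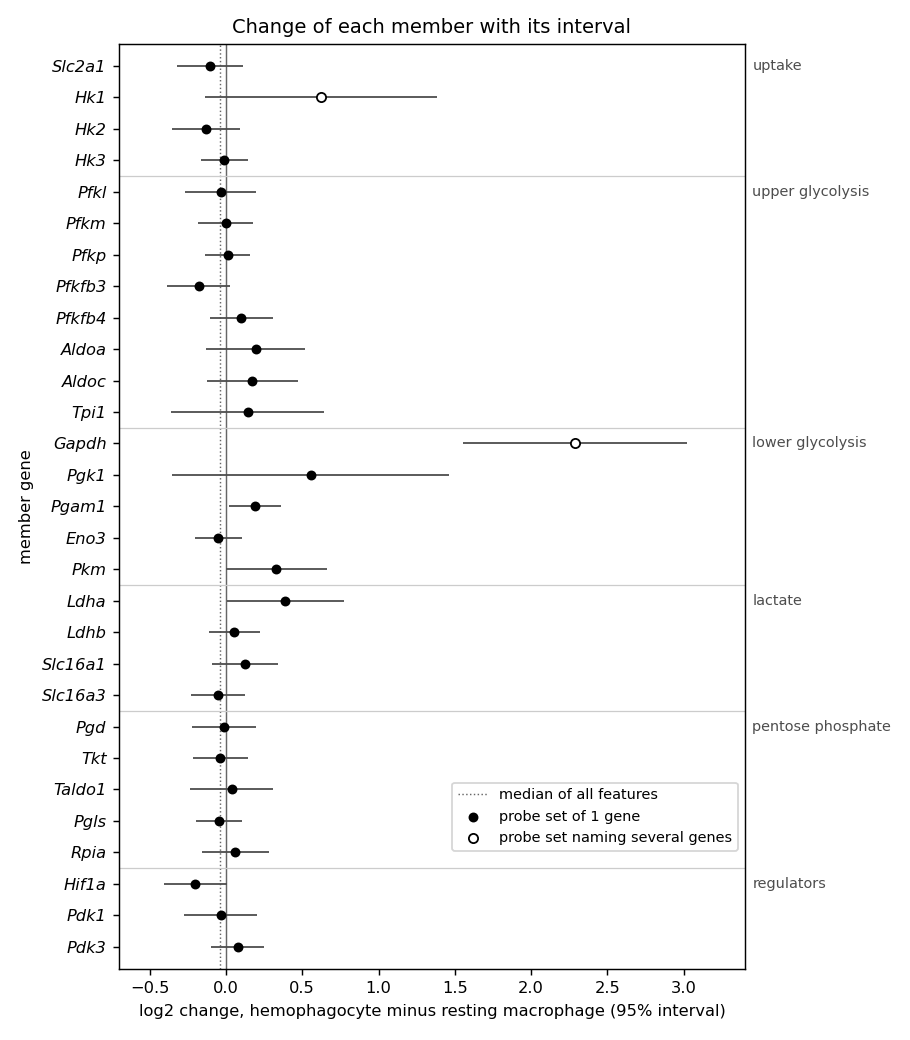
Log2 change of each member (horizontal axis, hemophagocyte minus resting macrophage) with its 95% interval from limma, by pathway step; open points are probe sets that name several genes. The interval of Gapdh runs from 1.55 to 3.02, while those of 26 members include 0 and those of Pgam1 and Ldha start just above it.

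Lower glycolysis, which runs from glyceraldehyde-3-phosphate to pyruvate and returns the ATP invested above it, had the highest median of the steps, at 0.33 over 5 measured members, 4 of them above 0. That median was 0.17 without hemophagocyte 5 and 0.14 without hemophagocytes 3 and 5. Gapdh encodes glyceraldehyde-3-phosphate dehydrogenase, and is often used as a reference gene. Its probe set stood at 9.28, 9.84, 10.58 and 11.11 on hemophagocytes 2, 3, 5 and 6, and at 7.55, 7.76, 8.28 and 8.07 on resting macrophages 3, 4, 5 and 6. Every hemophagocyte array lay above every resting array, with hemophagocyte 2 the lowest and hemophagocyte 6 the highest of its group. The means were 10.20 ± 0.80 and 7.92 ± 0.33 (SD, n = 4 each), a 4.88-fold difference.

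The Gapdh difference did not pass over all features (log2 change 2.29, SE 0.33, limma adjusted p = 0.11). An exact two-sided permutation test of the 8 arrays gave p = 0.029, the smallest this design allows. Any feature whose groups do not overlap gives this p, so it restates the lack of overlap. Of all features, 0.816% were higher and 3.0% lower without overlap. The Gapdh difference passed without hemophagocyte 2 (log2 change 2.59, limma adjusted p = 0.012). All features called went from 4 to 15 when that array was left out, so the gain in calls was not particular to Gapdh. Without hemophagocytes 3 and 5 the log2 change was 2.28 (limma adjusted p = 0.44), so on this probe set its size did not rest on those arrays. It then rested on hemophagocytes 2 and 6, at 9.28 and 11.11, the lowest and the highest of the group. The other probe sets naming Gapdh, described below, stood lower on hemophagocyte 6 (7.61 to 10.39, against 11.11). The median over all 25 probe sets was 9.06, 9.82, 9.80 and 8.59 on hemophagocytes 2, 3, 5 and 6, so hemophagocytes 3 and 5 were highest. On resting macrophages 3, 4, 5 and 6 that median was 7.79, 7.76, 8.26 and 8.07. A change without hemophagocytes 3 and 5 is not given for the other probe sets.

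The Gapdh probe set also names the gene copies Gm12070, Gm5523 and 3000002C10Rik, and no probe set names Gapdh alone. In all, 25 probe sets name it, each with 4 to 8 genes, and all 25 were higher in hemophagocytes, by 0.73 to 2.29 log2 units with a median of 1.37. They target near-identical sequence and are not independent measurements. The rule for choosing 1 of them took the set with the largest change. The groups did not overlap in 14 of the 25. Several of these 14 held the same values on every array, so the count includes repeats. The 25 probe sets differed most on hemophagocyte 6, where the set used stood at 11.11 and the other 24 at 7.61 to 10.39. On resting arrays all stood at 7.21 to 8.30. The mean of all 25 changed by 1.35 (limma adjusted p = 0.11).

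**Figure D3:**
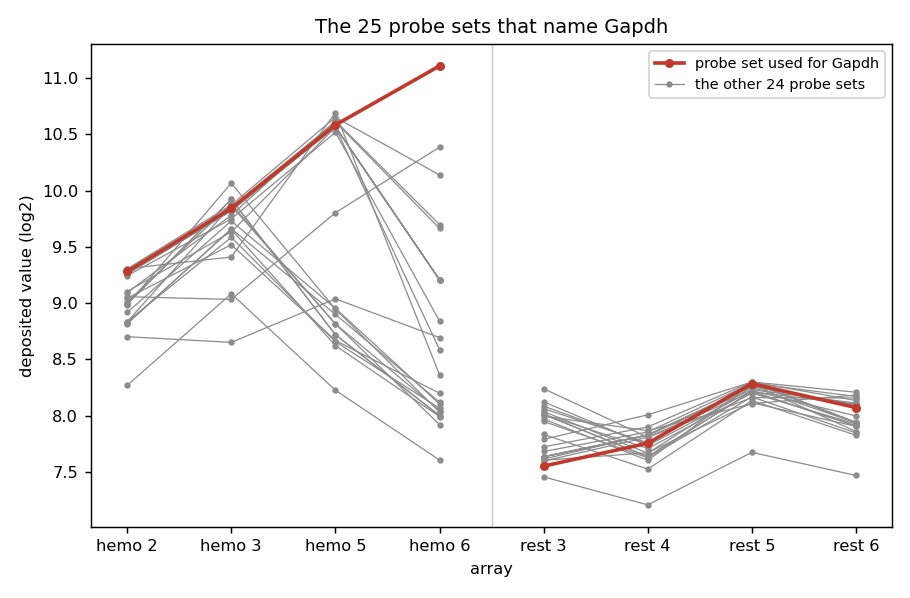
Deposited log2 value (vertical axis) on each array (horizontal axis) of the 25 probe sets that name Gapdh; each line joins the values of 1 probe set within a group, and arrays have no order. On hemophagocyte 2 all sets lie between 8.27 and 9.31, on hemophagocyte 6 they spread from 7.61 to 11.11, and on resting arrays they stay between 7.21 and 8.30.

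Pgk1, phosphoglycerate kinase, which makes the first ATP of this stretch, was high on a single array. It stood at 8.37 on hemophagocyte 5, at 6.08, 6.57 and 6.15 on hemophagocytes 2, 3 and 6, and at 6.17, 6.21, 6.28 and 6.29 on resting macrophages 3, 4, 5 and 6. Its log2 change of 0.56 (SE 0.41, limma adjusted p = 0.77) became 0.030 without hemophagocyte 5 and -0.12 without hemophagocytes 3 and 5. All 3 Pgk1 probe sets were highest on hemophagocyte 5, and a pair of them held the same values. Hemophagocyte 5 was also the array with the highest macrophage marker mean.

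Pgam1, phosphoglycerate mutase, differed by little but evenly on the probe set used. Hemophagocytes 2, 3, 5 and 6 stood at 6.04, 5.93, 6.08 and 5.99, and resting macrophages 3, 4, 5 and 6 at 5.71, 5.78, 5.97 and 5.82. Resting macrophage 5 overlapped with hemophagocyte 3, and the other resting arrays lay below all hemophagocytes. The log2 change was 0.19 (SE 0.08, limma unadjusted p = 0.031, adjusted p = 0.74), and 0.20 without hemophagocytes 3 and 5. These levels lay below the receptor mean on 7 of 8 arrays. Of the 3 Pgam1 probe sets, a pair held the same values. The remaining set had a change of 0.15 (limma unadjusted p = 0.16 over all probe sets). On it, hemophagocytes 3 and 6 (5.83 and 5.87) lay within the resting range (5.60 to 5.97).

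Pkm encodes the pyruvate kinase of most tissues outside liver and red cells. It stood at 7.42, 7.58, 8.07 and 7.46 on hemophagocytes 2, 3, 5 and 6, and at 7.48, 7.47, 7.06 and 7.20 on resting macrophages 3, 4, 5 and 6. Hemophagocytes 3 and 5 lay above every resting array, and the other hemophagocytes were within the resting range. The log2 change was 0.33 (SE 0.15, limma unadjusted p = 0.050, adjusted p = 0.74), which was 0.18 without hemophagocyte 5 and 0.14 without hemophagocytes 3 and 5. The dimmer Pkm probe set had a change of 0.44 and was highest on hemophagocyte 2 (7.86). Eno3, the enolase of muscle, had a change of -0.05 with every array between 6.60 and 6.79.

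Ldha, whose subunits favour the conversion of pyruvate to lactate, stood at 6.86, 7.29, 7.51 and 6.62 on hemophagocytes 2, 3, 5 and 6. Resting macrophages 3, 4, 5 and 6 stood at 6.79, 6.70, 6.46 and 6.77. Hemophagocytes 2, 3 and 5 exceeded every resting array, and hemophagocyte 6 lay within their range. The means were 7.07 ± 0.40 and 6.68 ± 0.15 (SD, n = 4 each), with a log2 change of 0.39 (SE 0.17, limma unadjusted p = 0.047, adjusted p = 0.74). The change was 0.24 without hemophagocyte 5 and 0.059 without hemophagocytes 3 and 5.

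The other lactate members differed less. Ldhb, whose subunits favour lactate use, had a change of 0.05, with all arrays between 6.24 and 6.50, and its dimmer probe set had one of -0.08. Slc16a1 encodes MCT1, a carrier of lactate in either direction, and changed by 0.12, with hemophagocytes at 5.90 to 6.22 and resting arrays at 5.73 to 6.10. Slc16a3 encodes MCT4, the lactate exporter of strongly glycolytic cells, and averaged slightly lower in hemophagocytes, with a change of -0.05 (95% interval -0.23 to 0.12). Its arrays ran from 7.22 to 7.33 in hemophagocytes and from 7.16 to 7.46 in resting macrophages.

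**Figure D4:**
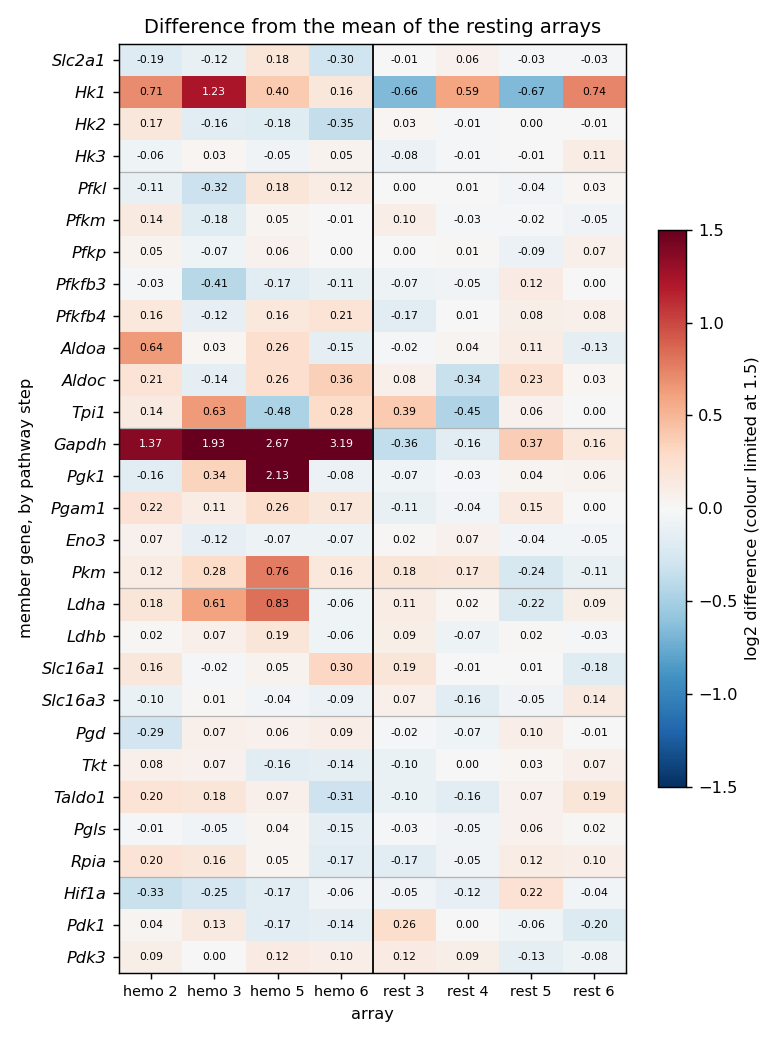
Difference of each member (rows, by pathway step) on each array (columns) from the mean of the 4 resting arrays, in log2 units, with colour limited at 1.5. Gapdh is at 1.37 to 3.19 on all hemophagocyte arrays, Pgk1 (2.13), Pkm (0.76) and Ldha (0.83) are highest on hemophagocyte 5, and the pentose phosphate rows stay between -0.31 and 0.20.

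No member of glucose uptake and phosphorylation passed the test, and 1 of 4 had a change above 0. Slc2a1, the GLUT1 transporter, stood at 6.70, 6.78, 7.08 and 6.60 on hemophagocytes 2, 3, 5 and 6 and at 6.88, 6.96, 6.87 and 6.87 on resting macrophages 3, 4, 5 and 6. Hemophagocyte 5 was the highest and the other hemophagocytes lay below all resting arrays, with a change of -0.11 (SE 0.10, limma adjusted p = 0.81). Without hemophagocyte 5 the change was -0.20 (limma unadjusted p = 0.026, adjusted p = 0.58). Hk2, the inducible hexokinase that traps glucose as glucose-6-phosphate, ranged from 6.03 to 6.55 in hemophagocytes and from 6.37 to 6.41 in resting macrophages, with a change of -0.13. It was -0.23 without hemophagocyte 2 (limma unadjusted p = 0.014, adjusted p = 0.73) and -0.056 without hemophagocyte 6. Hk3, the hexokinase of myeloid cells, had a change of -0.01, with all arrays between 6.50 and 6.69.

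The value for Hk1, the hexokinase of most tissues, cannot be read as hexokinase. The probe set that the rule selects also names Rpl17, a ribosomal protein, and Gm6133. It stood at 8.17, 8.68, 7.85 and 7.62 on hemophagocytes 2, 3, 5 and 6. On resting macrophages 3, 4, 5 and 6 it stood at 6.79, 8.05, 6.79 and 8.19, split into 2 low and 2 high arrays. The change was 0.62 (SE 0.34, limma adjusted p = 0.74). Of the 18 probe sets that name Hk1, 16 also name Rpl17. The other two name Hk1 alone. The brighter of them is tied to a single sequence record and stood at 8.69 on hemophagocyte 3 and at 6.61 to 6.99 elsewhere. The dimmer, which is tied to the RefSeq transcripts, had a change of 0.017 with every array between 5.06 and 5.30.

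Upper glycolysis, which spends ATP to make and split fructose-1,6-bisphosphate, had a median change of 0.06 over 8 measured members, 5 of them above 0. Aldoa, the aldolase of most tissues and the member with the largest change, stood at 7.59, 6.98, 7.21 and 6.80 on hemophagocytes 2, 3, 5 and 6 and at 6.94, 6.99, 7.06 and 6.82 on resting macrophages 3, 4, 5 and 6. Hemophagocytes 2 and 5 exceeded the resting arrays and hemophagocyte 6 lay below them, for a change of 0.19 (SE 0.15, limma adjusted p = 0.78). It was 0.047 without hemophagocyte 2 and 0.31 without hemophagocyte 6 (limma unadjusted p = 0.045). Over the alternatives described below, the smallest limma adjusted p of Aldoa was 0.63. The phosphofructokinase subunits of the committed step, Pfkl, Pfkm and Pfkp, had changes of -0.04, -0.00084 and 0.01, and the widest of their 95% intervals, that of Pfkl, ran from -0.27 to 0.20. Pfkfb3 and Pfkfb4 make and remove fructose-2,6-bisphosphate, which activates phosphofructokinase, and their changes of -0.18 and 0.10 had opposite signs. For Pfkfb3, hemophagocytes ran from 5.42 to 5.80 and resting macrophages from 5.76 to 5.95. The limma unadjusted p was 0.078 (adjusted p = 0.74), and 0.036 without hemophagocyte 2 (adjusted p = 0.73). Aldoc (0.17) and Tpi1, triose-phosphate isomerase (0.14), overlapped between the groups, and Tpi1 ranged from 5.78 to 6.89 within hemophagocytes and from 5.81 to 6.65 within resting macrophages.

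Pentose phosphate members had small changes. Over 5 members the median change was -0.01 and the values ran from -0.04 to 0.06, with 2 above 0. Rpia, ribose-5-phosphate isomerase, had the largest, 0.06 (SE 0.10, limma adjusted p = 0.90). It stood at 6.28, 6.24, 6.13 and 5.91 on hemophagocytes 2, 3, 5 and 6. On resting macrophages 3, 4, 5 and 6 it stood at 5.91, 6.03, 6.20 and 6.18, and the groups overlapped. Pgls and Pgd, which act in the NADPH-yielding oxidative branch, had changes of -0.04 and -0.01. The glucose-6-phosphate dehydrogenase of that branch, G6pdx, matched no probe set of the annotation table used and was not measured. Tkt and Taldo1, which shuffle carbon back to glycolysis, had changes of -0.04 and 0.04. The widest 95% interval was that of Taldo1, from -0.24 to 0.31, and the narrowest that of Pgls, from -0.19 to 0.11. Pgls alone of these reached the 95th percentile of the receptor genes, on 1 array, with all arrays between 7.46 and 7.67.

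Among the regulators, Hif1a averaged lower in hemophagocytes. It stood at 5.26, 5.34, 5.42 and 5.53 on hemophagocytes 2, 3, 5 and 6 and at 5.54, 5.47, 5.81 and 5.55 on resting macrophages 3, 4, 5 and 6. Only hemophagocyte 6 overlapped with the resting arrays, and it exceeded resting macrophage 4 alone. The change was -0.20 (SE 0.09, limma unadjusted p = 0.054, adjusted p = 0.74), and all values lay below the receptor mean. Without hemophagocyte 6 it was -0.25 (limma unadjusted p = 0.030). Over the alternatives described below, the smallest limma adjusted p of Hif1a was 0.60. Pdk1 and Pdk3, kinases that switch off pyruvate dehydrogenase and so favour lactate, had changes of -0.03 and 0.08, with intervals from -0.27 to 0.21 and from -0.10 to 0.25.

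Of 61 other genes of these and neighbouring pathways, 56 were measured. None was called by limma over all features (0 of 56), and at an unadjusted p under 0.05, 1 was higher and 2 were lower, where 1.56% of all features were higher and 5.08% lower. Their median change was -0.04, and 23 of 56 were above 0, against 36.2% of all features. Without overlap, 1 of 56 was higher (Bnip3) and 2 were lower (Slc2a3 and Rbks), where 0.816% of all features were higher and 3.0% lower. In oxygen sensing and HIF targets, 7 of 16 were above 0. Bnip3, a hypoxia-induced mitophagy receptor, stood at 7.62, 7.70, 7.91 and 7.64 on hemophagocytes 2, 3, 5 and 6. It stood at 7.59, 7.11, 7.31 and 7.04 on resting macrophages 3, 4, 5 and 6, below every hemophagocyte, but close on resting macrophage 3. Its change was 0.46 (limma unadjusted p = 0.0032, adjusted p = 0.74). Mif, a cytokine, had a change of 0.63 and reached 9.64 on hemophagocyte 5 against 7.58 to 8.01 elsewhere, and Arnt, the partner of HIF-1 alpha, had one of -0.18.

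In the other glycolysis and gluconeogenesis genes, 10 of 22 were above 0. Slc2a3, the GLUT3 transporter, was lower on all hemophagocyte arrays (5.93 to 6.06) than on all resting arrays (6.07 to 6.16), with a change of -0.14 (limma unadjusted p = 0.061). Eno2, the neuronal enolase, had a change of -0.18 (limma unadjusted p = 0.033) and Ldhc, the testis lactate dehydrogenase, one of 0.21. Among 7 further pentose phosphate and ribose genes, 3 were above 0. Ribokinase, Rbks, was lower on all hemophagocyte arrays (6.16 to 6.44) than on all resting arrays (6.46 to 6.57), with a change of -0.19 (limma unadjusted p = 0.032). Prps2 and Tktl1 had changes of -0.10 and -0.07. For pyruvate entry into mitochondria, 3 of 11 were above 0, with pyruvate carboxylase Pcx at 0.12, the phosphatase Pdp2 at -0.15 and the dehydrogenase subunit Pdha1 at 0.13. None of these passed over all features.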

How the data were processed

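The authors deposited 1 log2 value per probe set and array, judged as log2 from the range of the values. The submitters' processing notes name Affymetrix Expression Console 1.1; the sources used here do not name the background correction, probe summary or normalization. The values were used without further scaling. Of 35556 probe sets, 21789 carried 1 symbol in the platform annotation, 1621 carried several, and 12146 were unlisted. A feature is the probe set with the highest mean among those naming a gene, and a probe set that stood for several genes entered once. All 20220 features were fitted with limma 3.58.1 in R 4.3.3 (group only, eBayes), with Benjamini-Hochberg adjustment and a threshold of 0.05. The fit was tested on simulated data. There is no read depth, and 4 arrays per group limit the precision. The members, gene lists and alternatives were chosen with earlier results of these data known. Named in full were members at an unadjusted p under 0.05 or without overlap, the largest change of each step, Hif1a, and of related genes up to 3 per list by p. Pgk1, Pkm and Slc2a1 were added after their values were seen. Replicate numbers come from the sample titles, where 3, 5 and 6 occur in both groups.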

Additional observations from a re-analysis of the deposited data

Results flagged for a closer look

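In each group of 4 arrays, the gap between the highest or lowest array and its neighbour was divided by the group's range. It exceeded Dixon's 95% critical value in 3 of 58 groups tested, and chance flags about 1 group in 20. Slc2a1 stood at 6.96 on resting macrophage 4, the highest of its group. Pfkfb4 stood at 6.24 on hemophagocyte 3 and Pgd at 6.01 on hemophagocyte 2, each the lowest of its group.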

How the results depend on the processing

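Each result was recomputed under 18 alternatives. The count of members called stayed at 0 except without hemophagocyte 2 and with the replicate number as a block, where 1 (Gapdh) was called. All features called numbered 15 without hemophagocyte 2 and 9 with the block, against 4 with all arrays and no block. The block also gives hemophagocyte 2 no weight, so these alternatives share that omission. The limma unadjusted p of Gapdh was at most 0.0013 in 17 of the 18 alternatives, and single-gene probe sets give it no value. Leaving out each array in turn gave 0 to 1 members called, 1 to 5 higher and 0 to 2 lower at an unadjusted p under 0.05, and 1 to 3 higher and 0 to 3 lower without overlap, where fewer arrays overlap less often and 1.36% to 2.12% of all features were higher and 3.80% to 6.78% lower. Members higher without overlap numbered 2 after quantile normalization, median centring and cyclic loess (all features 1.36%, 1.46% and 1.89%), 0 with single-gene probe sets (0.802%), and 3, with 2 lower, without hemophagocytes 3 and 5 (5.11% and 7.76%). At an unadjusted p under 0.05, 1 member was higher with features at or above the median level, which keeps 19 members. Without hemophagocytes 3 and 5, 1 was higher and 1 lower. For no alternative is a share of all features at an unadjusted p under 0.05 given here. The share above 0 was 69.0% after quantile normalization and 72.4% after cyclic loess, and 48.3% to 62.1% with single arrays left out. The members' median, 0.04, ran from -0.0072 to 0.064 over the latter and was below 0 without resting macrophage 4. The cause was not tested.

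The replicate block gave 1 member called (Gapdh, log2 change 2.54, limma adjusted p = 0.014) and 2 lower at an unadjusted p under 0.05, where all features called went from 4 to 9. Numbers 2 and 4 occur in a single group each, so hemophagocyte 2 and resting macrophage 4 carry no weight in this comparison. Same-numbered arrays deviated from their group means with correlations of 0.14, 0.055 and 0.12 for numbers 3, 5 and 6, and not every array correlated best with its own number, so the numbers were not taken as pairs.

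Of 511 recomputed changes of single members, 47 had the opposite sign, in 13 members, and none of these was called. Quantile normalization gave 0.010 for Hk3, 0.023 for Pfkm, 0.011 for Pgd and 0.0059 for Pdk1, median centring 0.016, 0.026 and 0.013 for the first 3 of these, and cyclic loess 0.023, 0.034, 0.020 and 0.0079 for all 4 and 0.0090 for Pgls. Array weights gave 0.019 for Pfkl, 0.023 for Pfkm and -0.015 for Taldo1, and the mean of all probe sets -0.015 for Ldhb. Without hemophagocytes 3 and 5 the values were 0.0012 for Pfkl, 0.065 for Pfkm, -0.12 for Pgk1, -0.022 for Ldhb and -0.054 for Taldo1. The replicate block gave 0.0021 for Hk3, -0.0060 for Tpi1, 0.054 for Pgd, -0.072 for Taldo1 and -0.0021 for Rpia. Leaving out single arrays gave ranges of -0.039 to 0.024 for Hk3, -0.10 to 0.052 for Pdk1, -0.11 to 0.060 for Pfkl, -0.047 to 0.058 for Pfkm and -0.018 to 0.038 for Pfkp. They were -0.050 to 0.077 for Pgd, -0.018 to 0.15 for Taldo1, -0.074 to 0.0031 for Tkt and -0.020 to 0.35 for Tpi1.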
